A study of Mus musculus with 14 samples.

Results

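The Reg (regenerating) family of the mouse is made up here of 7 genes: Reg1, Reg2, Reg3a, Reg3b, Reg3d, Reg3g and Reg4. They were taken by name from 19938 genes measured on arrays, and each was read through the 1 probe set that carries its symbol alone. Those probe sets are 10539200 for Reg1, 10539194 for Reg2, 10539186 for Reg3a, 10539179 for Reg3b, 10545561 for Reg3d, 10545569 for Reg3g and 10494636 for Reg4. RNA came from C57BL/6 mice, and 2 arrays were run for each of 7 groups. The tissues were gallbladder, liver and small intestine. Organoids of the same 3 organs, which are gel-embedded epithelial cultures, grew per the labels in Matrigel with EGF, FGF10, HGF, nicotinamide, R-spondin 1 and noggin. The differentiated gallbladder organoids spent 2 weeks in medium from which R-spondin 1, noggin and nicotinamide were left out. R-spondin 1 strengthens Wnt signals and noggin blocks BMP signals. The labels give no age, no sex and no gut segment, and nothing in them says that the 2 samples of a group came from separate animals or cultures. P-values then measure the spread between these samples, which may be technical.

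Reg proteins are small secreted proteins built around a single C-type lectin domain. In the small intestine Reg3b and Reg3g are antibacterial lectins made by Paneth cells and enterocytes, and their genes respond to microbial signals through MyD88 and to the cytokine IL-22 through STAT3. Reg1 and Reg2 are best known as products of pancreatic acinar cells, Reg3a and Reg3d are further members of the pancreatitis-associated branch, and Reg4 marks secretory and enteroendocrine cells of the gut. In the RefSeq annotation of GRCm38.p6, 6 of the 7 genes lie on chromosome 6 within 98.0 kb, in the order Reg3b, Reg3d, Reg3a, Reg2, Reg1 and Reg3g, with 1 pseudogene, Gm52853, between Reg1 and Reg3g. Reg4 lies apart on chromosome 3.

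All levels are log2 signals as deposited, and all differences are log2 differences from limma with p-values adjusted over the 19938 genes; a gene is called changed at an adjusted p below 0.05. A level of one gene is not set against that of another, because each probe set has its own response. Marker levels followed the labels in part. Mean log2 signals of enterocyte markers were 13.5 and 13.6 in small intestine tissue and 12.3 and 12.2 in its organoids, and biliary markers were at 11.6 to 11.7 in the gallbladder, differentiated and liver organoids. Hepatocyte markers were at 14.02 and 13.87 in liver tissue but 7.39 and 7.42 in liver organoids, and they were also at 12.6 and 13.7 in gallbladder tissue. Replicates correlated across genes, which are not independent, at r of 0.996 to 0.998 in organoids and 0.965 to 0.982 in tissues. The highest signals on the arrays were 14.55 to 14.78, so values near 14 lie close to the top of the scale and differences there may be compressed. The deposited values carry no detection call, so a difference against a low signal, such as Reg3b and Reg3g in liver tissue or Reg4 in gallbladder organoids, liver organoids and both of their tissues, has no measured floor under it.

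In all 3 tissues the arrays stand apart from each other. Of 19 measured pancreatic acinar markers (22 listed), 16 were higher by at least 2 in small intestine tissue replicate 2 than in replicate 1, with a median gap of 5.24 and a range of 0.34 to 6.85. Their mean log2 signal was 11.4 in that array, 6.80 in replicate 1 and 6.57 to 7.37 in the other arrays. Cpa1, a carboxypeptidase, read 6.79 and 13.52 in the 2 replicates, and Cel, a lipase, read 6.27 and 12.83. Genes known for their position along the gut, picked after their values were seen, split as well. The ileal bile acid proteins Fabp6 (13.16 and 5.42) and Slc10a2 (11.94 and 6.18) were high in replicate 1, and S100g, a duodenal calcium-binding protein, was higher in replicate 2 (7.89 and 12.07). In gallbladder tissue, all 8 biliary and gallbladder epithelium markers were lower in replicate 2, with gaps of -0.28 to -0.78, and hepatocyte markers were higher there by a median of 1.23. In liver tissue 81 genes (0.406%) differed by at least 2. Acute phase and defence genes had a mean log2 signal of 9.48 in replicate 1 and 8.63 in replicate 2, with 3 of 26 lower by at least 2 in replicate 2; Saa1, an acute phase protein, read 13.46 and 7.23. Socs3, an inhibitor of STAT3 signals, read 11.56 and 8.01, whereas Reg3b and Reg3g differed between these arrays by 0.04 and -0.26. Results that rest on these arrays are given with and without them below.

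Reg3b and Reg3g, the antibacterial lectins, were high in small intestine tissue and in every organoid group, and low in liver tissue. Reg3b read 13.46 and 13.40 in gallbladder organoids, 12.99 and 12.78 in small intestine tissue, 12.47 and 12.17 in small intestine organoids, 10.11 and 10.16 in differentiated gallbladder organoids, and 9.47 and 9.35 in liver organoids. In gallbladder tissue it read 8.81 and 5.38, and in liver tissue 5.90 and 5.94. The 2 gallbladder tissue arrays thus lie on either side of liver tissue. Of the 6 steps between neighbours in this order, the step from liver organoids down to gallbladder tissue was called (adjusted p = 0.0347 by limma, a comparison in which 44.6% of all genes were called), and the other 5 were not. Arrays were also left out in turn, a check added after seeing the data. That step of 2.32 was 4.03 without gallbladder tissue replicate 1 and 0.60 without replicate 2. Those 2 fits take the gap between the gallbladder tissue arrays out of the error (SE 0.14, against 0.78 with all arrays). The call ended without any 1 array of liver organoids (adjusted p = 0.126 and 0.106), gallbladder organoids (0.0510) or differentiated organoids (0.0512).

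Reg3g followed nearly the same order. Its signals were 13.42 and 13.28 in gallbladder organoids, 12.64 and 12.38 in small intestine organoids, 12.32 and 11.99 in small intestine tissue, 11.92 and 11.85 in differentiated gallbladder organoids, and 9.55 and 9.91 in liver organoids. Gallbladder tissue gave 9.34 and 5.80 and liver tissue 4.96 and 4.70, so here both gallbladder tissue arrays stood above liver tissue. Only the last of the 6 steps was called (gallbladder over liver tissue, adjusted p = 0.0186). Over the 14 arrays Reg3b and Reg3g had a Pearson correlation of 0.957, the closest pair in the family; this is a description, since the arrays share 7 groups.

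**Figure D1:**
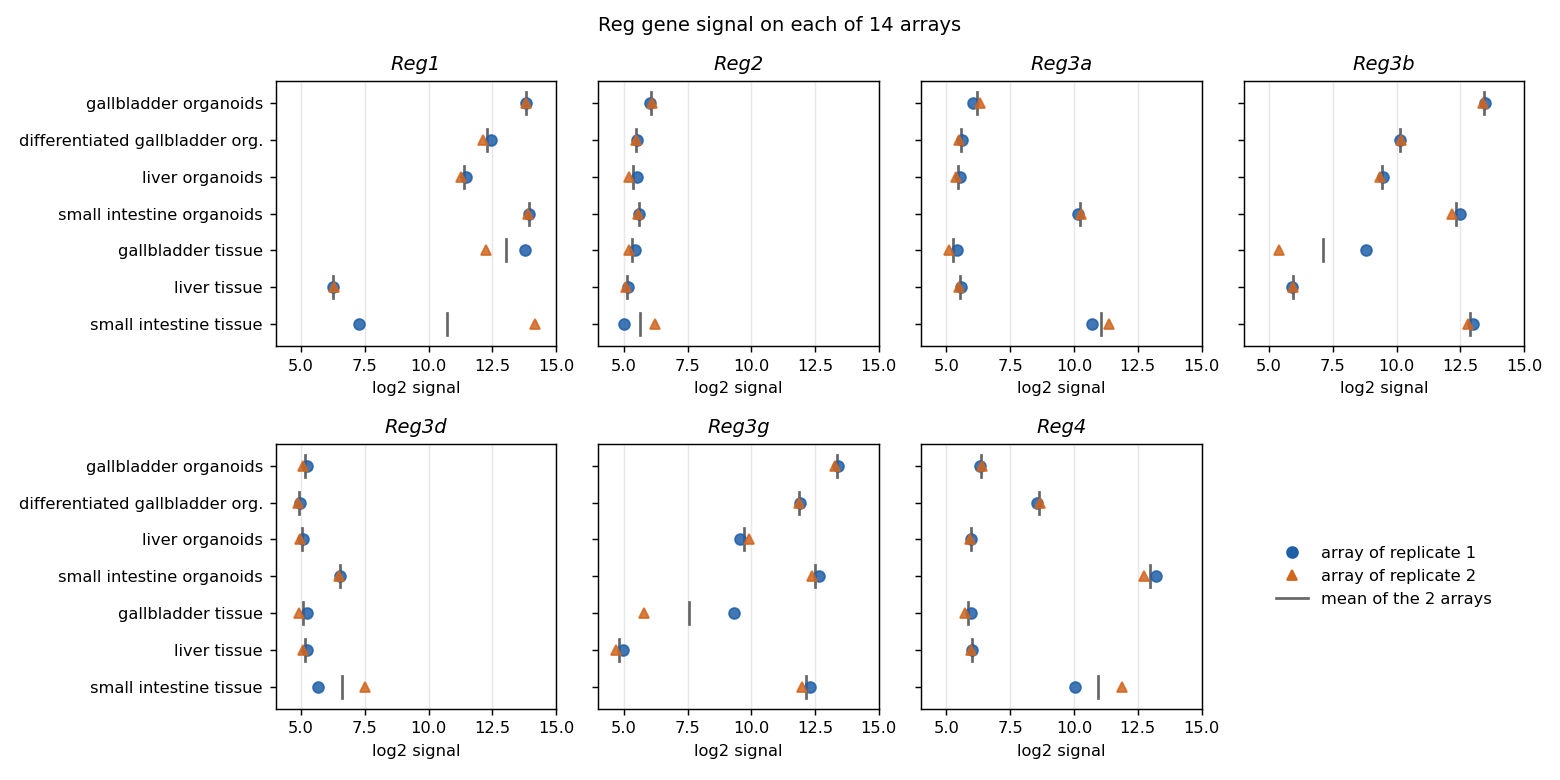
Log2 signal of each of the 7 Reg genes (x axis, 1 panel per gene) on the 14 arrays by group (y axis); circles and triangles are the arrays of replicates 1 and 2 and the vertical bar is their mean. Reg3b and Reg3g are spread over 4.70 to 13.46 with gallbladder organoids highest, Reg2 stays within 4.996 to 6.24, and Reg1 is split between 7.28 and 14.15 in small intestine tissue.

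**Figure D2:**
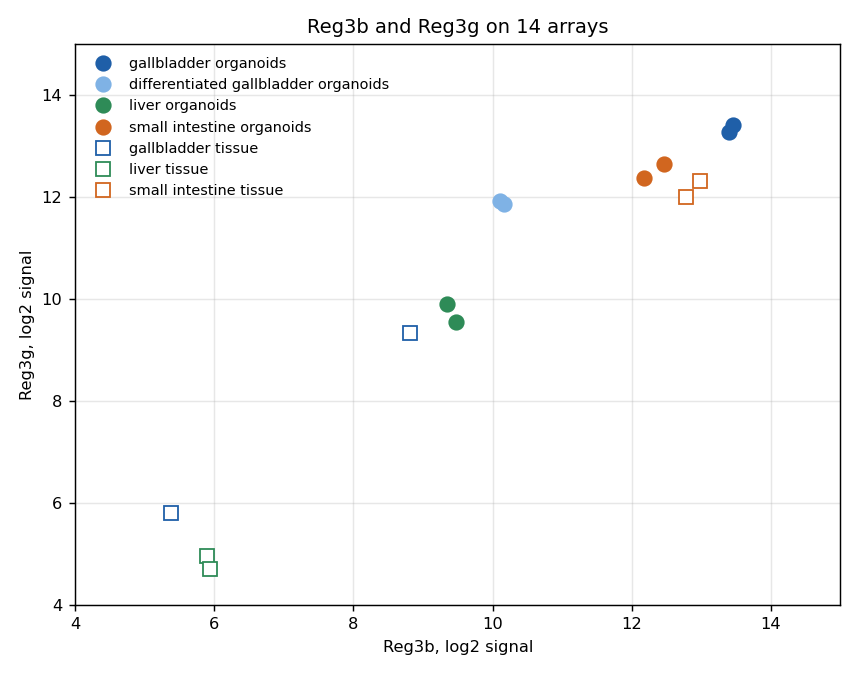
Log2 signal of Reg3b (x axis) against that of Reg3g (y axis) on the 14 arrays, filled circles for organoids and open squares for tissues, coloured by organ. Points run from liver tissue and gallbladder tissue replicate 2 at the lower left to gallbladder organoids at the upper right, and gallbladder tissue replicate 1 (8.81 and 9.34) lies beside the liver organoids.

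The other Reg3 genes followed Reg3b and Reg3g less closely than these followed each other. Over the 14 arrays Reg3a had r = 0.63 with Reg3b and 0.50 with Reg3g, and Reg3d had 0.50 and 0.36. The 250 bases before the annotated start of these 4 genes are shown, from RefSeq on GRCm38.p6, each on the strand of its gene. The windows are chr6:78370635-78370884 (plus strand) for Reg3b, chr6:78468875-78469124 (minus) for Reg3g, chr6:78380459-78380708 (plus) for Reg3a and chr6:78378866-78379115 (minus) for Reg3d. Capitals mark every match, on either strand, of 3 motifs. TTCNNNGAA is the palindrome that STAT factors recognise. The E-box searched for reads CACCTG, and the core promoter box searched for reads TATAAA.
Reg3b: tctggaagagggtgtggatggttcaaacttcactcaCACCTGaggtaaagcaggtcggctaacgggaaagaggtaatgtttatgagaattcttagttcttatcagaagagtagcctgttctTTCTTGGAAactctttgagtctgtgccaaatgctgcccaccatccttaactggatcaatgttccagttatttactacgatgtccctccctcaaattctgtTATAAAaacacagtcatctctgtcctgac
Reg3g: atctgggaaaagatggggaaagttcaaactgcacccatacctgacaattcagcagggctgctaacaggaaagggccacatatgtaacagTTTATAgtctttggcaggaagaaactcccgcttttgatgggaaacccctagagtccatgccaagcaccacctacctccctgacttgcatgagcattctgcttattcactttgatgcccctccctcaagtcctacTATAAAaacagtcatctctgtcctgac
Reg3a: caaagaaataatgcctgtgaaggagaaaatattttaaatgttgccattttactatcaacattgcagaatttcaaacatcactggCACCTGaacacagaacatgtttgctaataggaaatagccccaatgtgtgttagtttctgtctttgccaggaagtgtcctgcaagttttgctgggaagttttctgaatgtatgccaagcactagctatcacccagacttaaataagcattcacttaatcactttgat
Reg3d: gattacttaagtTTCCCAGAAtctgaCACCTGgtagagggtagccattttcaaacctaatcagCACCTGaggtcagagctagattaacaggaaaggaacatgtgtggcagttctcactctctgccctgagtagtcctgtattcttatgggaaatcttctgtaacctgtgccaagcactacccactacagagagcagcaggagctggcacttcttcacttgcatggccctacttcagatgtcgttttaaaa
Promoter windows were found for all 7 members. Reg3b and Reg3g each carry TATAAA close to the start, at -29 to -24 and at -27 to -22 counted back from it, whereas the windows of Reg3a and Reg3d hold no such run of letters. Bases past the annotated start were not searched. The last bases of the Reg3a window resemble a stretch that lies before TATAAA in Reg3g. For Reg3a the contrast thus depends on where its start is annotated. The palindrome TTCNNNGAA occurs in Reg3b at -129 to -121 and in Reg3d at -238 to -230 and in no other member. Over the family, TATAAA was present in 4 of 7 windows (Reg1, Reg2, Reg3b and Reg3g) against 12.4% of 32851 promoter windows of this length, TTCNNNGAA in 2 of 7 against 7.02%, and CACCTG in 5 of 7 (Reg2, Reg3a, Reg3b, Reg3d and Reg4) against 17.2%. In global alignments the Reg3b and Reg3g windows were identical at 68.4% of alignment columns, the highest of the 21 pairs. The others ranged from 43.9% to 54.4%, the upper value being Reg1 with Reg2. Columns with a gap count as not identical in these shares. Among bases aligned to a base, 173 of 247 were identical for Reg3b with Reg3g (253 columns). For Reg3a with Reg3g it was 141 of 201 (299 columns), so the ranking depends on how gaps are counted. A match is a run of letters, and no binding was measured.

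**Figure D3:**
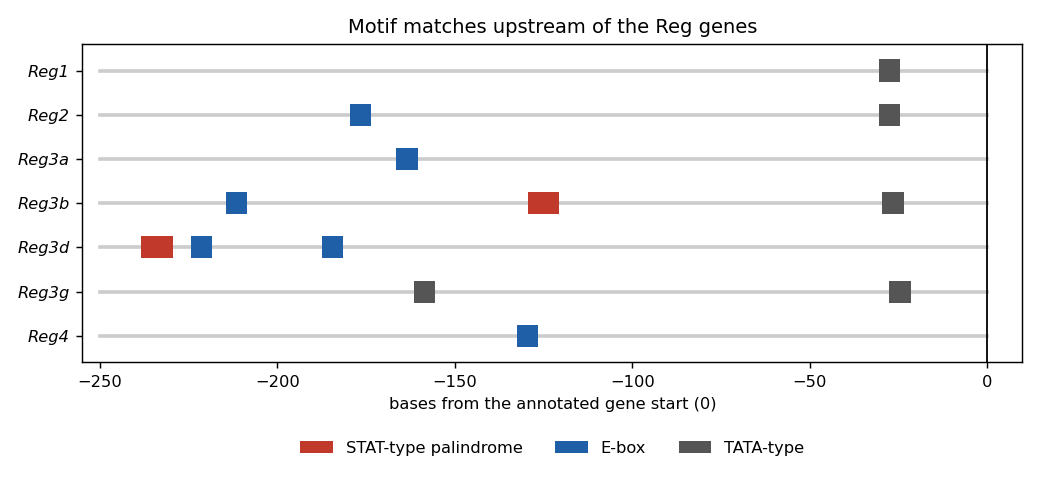
Positions of the 3 motifs in the 250 bases before the annotated start (x axis, bases from the start) of the 7 Reg genes (1 line each). The TATA-type boxes of Reg1, Reg2, Reg3b and Reg3g line up just before the start, and the STAT-type palindrome appears in Reg3b and Reg3d.

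Reg3a, a further Reg3 lectin, was high on the 4 small intestine arrays. It read 10.70 and 11.38 in small intestine tissue and 10.16 and 10.28 in small intestine organoids, and 5.09 to 6.32 on the other 10 arrays. Tissue stood above organoids (adjusted p = 0.00988) and organoids above the next group, the gallbladder organoids (adjusted p = 3.12e-07); no lower step was called. Reg3d, its neighbour on chromosome 6, had the same 2 groups on top at much smaller distances, with 5.66 and 7.52 in small intestine tissue, 6.54 and 6.49 in small intestine organoids and 4.86 to 5.22 elsewhere. The step from small intestine organoids to gallbladder organoids was its only called step (adjusted p = 0.0342). Reg3a and Reg3d had r = 0.901 over the 14 arrays.

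Reg4, a lectin of gut secretory cells, was highest in small intestine organoids, at 13.22 and 12.74. Small intestine tissue followed at 10.03 and 11.89, then differentiated gallbladder organoids at 8.55 and 8.67. Gallbladder organoids read 6.33 and 6.40, and the arrays of liver organoids, gallbladder tissue and liver tissue read 5.74 to 6.00. The first 3 steps of this order were called, at adjusted p of 0.00500, 0.00171 (small intestine tissue over differentiated organoids, where 40.4% of all genes were called) and 0.0173, and none below gallbladder organoids was. The second step, 2.35 with all arrays, was 3.28 without small intestine tissue replicate 1 and 1.42 without replicate 2, a check added after seeing the data, and kept its call without any 1 array. No array of gallbladder or liver organoids in full medium exceeded 6.40.

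Reg1, the acinar lithostathine gene, was near the top of the scale in small intestine organoids (13.93 and 13.90) and gallbladder organoids (13.81 and 13.81). It read 13.79 and 12.24 in gallbladder tissue, 12.46 and 12.11 in differentiated gallbladder organoids, 11.48 and 11.27 in liver organoids and 6.26 and 6.28 in liver tissue. In small intestine tissue it read 7.28 in replicate 1 and 14.15 in replicate 2, a gap of 6.88 that exceeds 99.99% of the gaps of all genes between those arrays. That gap enters the error of Reg1 in every comparison, because the fit shares 1 spread over all groups, and no step in the order of its levels was called. Reg2, a close relative of Reg1, read 6.02 and 6.11 in gallbladder organoids, 4.996 and 6.24 in small intestine tissue and 5.08 to 5.60 on the other arrays; none of its steps was called either.

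The split between the small intestine tissue arrays ran through much of the family. From replicate 1 to replicate 2, Reg1 differed by 6.88, Reg3d and Reg4 by 1.86 each, Reg2 by 1.25 and Reg3a by 0.68, all higher in replicate 2, the array with the acinar markers. Reg3b and Reg3g differed by -0.21 and -0.33. In all, 182 of 19938 genes (0.913%) differed by at least 2 between these arrays. Acinar markers had a mean log2 signal of 7.37 and 7.32 in small intestine organoids, where Reg1 was at 13.93 and 13.90, and of 6.72 and 6.79 in gallbladder organoids, where it was at 13.81 on both. The mean hides single genes: 2 of 19 acinar markers, Clps and Sycn, were called higher in small intestine than in gallbladder organoids and 0 lower. In that comparison 35.6% of all genes were called. S100g, high in replicate 2 only, was at 11.54 and 11.27 in small intestine organoids, and Fabp6 was at 5.52 and 5.59 there. Other cell type markers moved too: 12 of 12 immune markers were higher in replicate 2, by a median of 1.02. Enteroendocrine markers had a median gap of 0.53, with 4 of 16 higher and 1 lower by at least 2. Paneth markers had a median gap of 0.20, with 2 of 9 higher by at least 2, Pla2g2a reading 7.69 and 13.09 and Ang4 8.38 and 10.67. Between the small intestine organoid arrays 1 of 9 Paneth markers was also higher in replicate 2 by at least 2, with a gap of 3.95. The part of acinar, immune, enteroendocrine and Paneth cell RNA and of gut position in the tissue values of Reg1, Reg2, Reg3d and Reg4 was not tested. Fewer cells of a type and less RNA per cell cannot be told apart in these bulk samples.

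**Figure D4:**
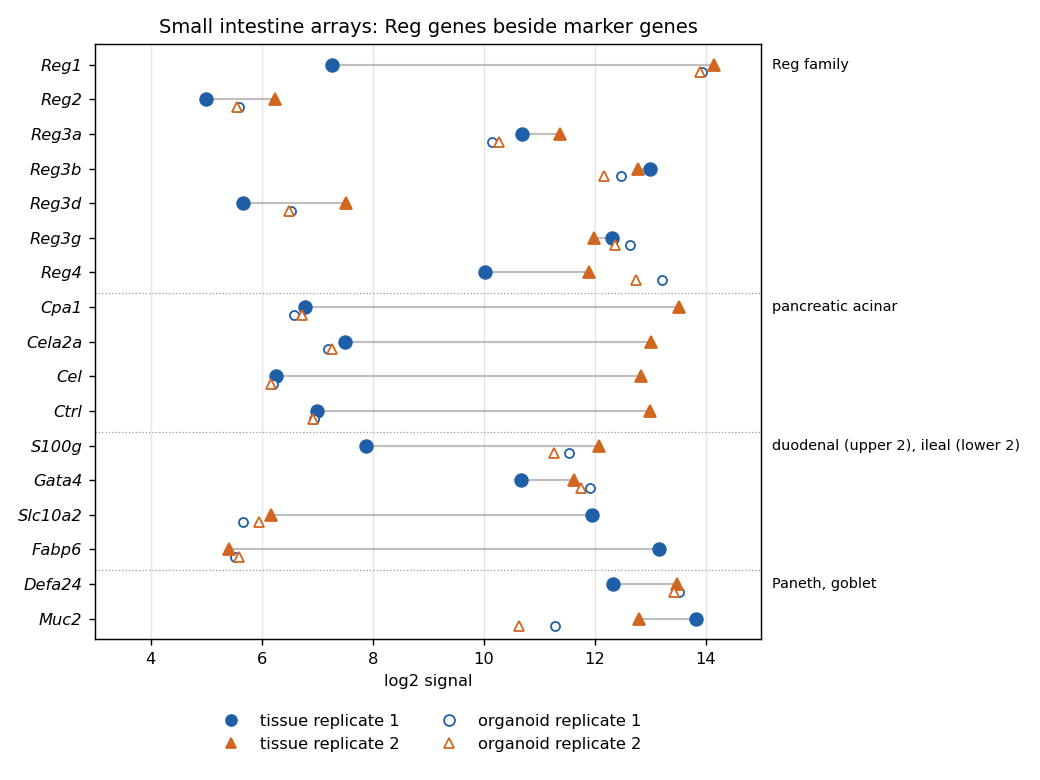
Log2 signal (x axis) of the 7 Reg genes and of marker genes (y axis) in small intestine; filled symbols are the 2 tissue arrays, joined by a line, and open symbols the 2 organoid arrays. Reg1, Cpa1, Cela2a, Cel, Ctrl and S100g are far higher in tissue replicate 2, Fabp6 and Slc10a2 in replicate 1, and Reg3b and Reg3g differ little.

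Gallbladder organoids with and without the 3 factors differed in Reg3b and Reg4, in opposite directions. Reg3b fell by 3.29 ± 0.78 (SE, adjusted p = 0.0415 by limma), from a mean of 13.43 to 10.14. Reg4 rose by 2.24 ± 0.44 (adjusted p = 0.0173), from 6.37 to 8.61. These were 2 of 7 members, beside 4.73% of all genes called (2.80% higher and 1.93% lower). The other 5 members all had lower means after withdrawal without passing the test: Reg1 -1.53 ± 1.59, Reg3g -1.46 ± 0.81, Reg3a -0.63 ± 0.20, Reg2 -0.58 ± 0.31 and Reg3d -0.26 ± 0.43. For each of the 7 genes the 2 pairs of arrays do not overlap. Such a split of 2 against 2 has p = 0.333 in an exact 2-sided permutation test, and its share over all genes was not counted. The median difference of the members was -0.63, and that of all genes -0.04.

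How many members pass here depends on which arrays set the error. Without any 1 of the 4 arrays compared neither Reg3b (adjusted p 0.209 to 0.227) nor Reg4 (0.112 to 0.139) was called, and Reg3b also lost its call without any array of small intestine organoids (0.0694), liver organoids (0.071) or liver tissue (0.0557). With a trended, robust variance Reg3b lost its call as well (adjusted p = 0.0596). In a fit to the 8 organoid arrays alone, chosen after seeing the data, 6 of 7 members were called: Reg1 (adjusted p = 2.96e-05), Reg2 (0.00311), Reg3a (0.00312), Reg3b (3.38e-07) and Reg3g (6.73e-05) as lower and Reg4 (7.74e-06) as higher. The share of all genes called in that fit is not given here, and the share given above belongs to the fit over all arrays. Leaving out either small intestine tissue array brought calls for Reg1, Reg2 and Reg3a (adjusted p = 0.0490, 0.0250 and 0.0267), and leaving out either gallbladder tissue array one for Reg3g (0.000759), with the differences unchanged.

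Genes of the Reg receptor, IL-22, IL-6 and STAT3 pathway were counted in this comparison, in which 4.73% of all genes were called. Of 26 measured genes (28 listed) 0 rose and 2 fell, with a median difference of -0.17, against -0.04 for all genes: Osmr, the oncostatin M receptor, by -2.75 ± 0.27 (adjusted p = 0.000328), and Il6st, the gp130 subunit it signals with, by -0.64 ± 0.12 (adjusted p = 0.0127). Osmr read 11.40 and 11.05 in gallbladder organoids and 8.44 and 8.51 in differentiated ones. Among 26 acute phase and secreted defence genes 0 rose and 2 fell (median -0.36), Cp, the copper carrier ceruloplasmin (-2.47 ± 0.35), and Slpi, a protease inhibitor (-1.22 ± 0.17). Of 18 other lectins 3 rose and 0 fell (median -0.07), Clec2e by 3.81 ± 0.18, Lgals4 by 1.57 ± 0.21 and Lgals3 by 1.22 ± 0.26. Of 9 measured goblet cell markers 2 rose and 0 fell (median -0.13), Tff3 (3.28 ± 0.36) and Clca1 (1.82 ± 0.21). Gastric markers gave 3 higher and 1 lower of 9 (median -0.05), and hepatocyte markers 2 higher and 0 lower of 10 (median -0.02). In contrast 0 of 16 enteroendocrine, 0 of 9 Paneth, 0 of 12 enterocyte and 0 of 19 acinar markers were called.

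Between the organoids of the 2 biliary organs, Reg3b, Reg3g and Reg3a were higher in gallbladder than in liver organoids. Reg3b differed by 4.02 ± 0.78 (adjusted p = 0.00876), Reg3g by 3.62 ± 0.81 (adjusted p = 0.0171) and Reg3a by 0.73 ± 0.20 (adjusted p = 0.0428). These 3 of 7 members, all in that direction, stand beside 12.7% of all genes called and 6.17% called higher. The remaining Reg3 gene, Reg3d, gave 0.13 ± 0.43 (adjusted p = 0.891). Reg1 had a difference of 2.44 ± 1.59 and Reg2 one of 0.69 ± 0.31 that did not pass. In the 8 organoid arrays alone both were called (adjusted p = 1.07e-06 and 0.000664), as was Reg4 (0.42, adjusted p = 0.0341). The share of all genes called in that fit is not given here. The median difference was 0.73 for the members and 0.05 for all genes.

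The calls on liver organoids rested on few arrays. Without any 1 of the 4 arrays compared Reg3b (adjusted p 0.0518 to 0.0651), Reg3g (0.0834 to 0.103) and Reg3a (0.0976 to 0.259) all missed the threshold, and Reg3a also missed it without a differentiated (0.0684) or small intestine organoid array (0.0660) and with the replicate number as a block (0.0553). Without either small intestine tissue array 5 members were called, Reg1 and Reg2 being added. Pathway genes gave 3 higher and 1 lower of 26 (median 0.05): Osmr (2.14 ± 0.27), Tlr4, the endotoxin receptor (-0.89 ± 0.21), and Extl3, a proposed Reg receptor (0.55 ± 0.12, adjusted p = 0.0181), were the largest. Extl3 read 10.28 and 10.29 in gallbladder organoids and 9.63 and 9.83 in liver organoids. Of the defence genes 4 of 26 were higher and 0 lower (median 0.38), led by the chemokines Ccl20 (2.48 ± 0.34) and Cxcl5 (1.61 ± 0.25) and by the antibody transporter Pigr (1.59 ± 0.27).

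Small intestine organoids differed from both biliary cultures in Reg3a, Reg3d and Reg4. Against them gallbladder organoids gave -6.61 ± 0.44 for Reg4 (adjusted p = 2.11e-06), -4.04 ± 0.20 for Reg3a (adjusted p = 3.12e-07) and -1.35 ± 0.43 for Reg3d (adjusted p = 0.0342). That is 3 of 7 members lower, with 35.6% of all genes called and 15.4% called lower. Liver organoids gave -7.04 ± 0.44 for Reg4 (adjusted p = 1.31e-06), -4.77 ± 0.20 for Reg3a (adjusted p = 9.84e-08) and -1.49 ± 0.43 for Reg3d (adjusted p = 0.0282). They were also lower in Reg3b (-2.91 ± 0.78, adjusted p = 0.0190) and Reg3g (-2.78 ± 0.81, adjusted p = 0.0284), so 5 of 7 members were lower, beside 26.5% of all genes called and 12.2% called lower. Gallbladder organoids, by contrast, had Reg3b and Reg3g means above those of small intestine organoids by 1.11 ± 0.78 and 0.84 ± 0.81 (adjusted p = 0.302 and 0.456). These 2 were called in the 8 organoid arrays alone (adjusted p = 1.34e-05 and 0.000404) and without either gallbladder tissue array (7e-05 and 0.00301).

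Reg4 and Reg3a kept their calls without any single array, whereas the calls of Reg3d against small intestine organoids ended without any 1 of the 4 arrays compared (adjusted p 0.104 to 0.140 for gallbladder and 0.0966 to 0.131 for liver organoids). For gallbladder organoids that call also ended without a differentiated (0.0517) or liver organoid array (0.0507). In liver organoids Reg3b (0.0725 to 0.100) and Reg3g (0.0928 to 0.136) behaved likewise. Reg1 gave -2.54 ± 1.59 for liver against small intestine organoids (adjusted p = 0.315), and was called in the 8 organoid arrays alone (adjusted p = 1.09e-07).

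The pathway and cell type lists were counted in the same comparisons, in which 35.6% (gallbladder) and 26.5% (liver organoids) of all genes were called. Of the 26 pathway genes 10 were higher and 0 lower in gallbladder than in small intestine organoids (median 0.47, against 0.11 for all genes), led by Osmr (5.43 ± 0.27), Lifr (4.50 ± 0.31) and Tlr4 (3.28 ± 0.21); in liver organoids 7 were higher and 0 lower (median 0.30, against 0.05 for all genes). Of the 26 defence genes 15 were higher and 1 lower in gallbladder organoids (median 1.60), among them Cxcl5 (7.26 ± 0.25), the iron-binding lactoferrin Ltf (7.22 ± 0.51) and Cp (7.11 ± 0.35). Paneth markers gave 3 higher and 5 lower of 9, goblet markers 0 and 8 of 9, and enteroendocrine markers 0 and 13 of 16. Defa24, a Paneth cell defensin, differed by -9.82 ± 0.29, the Paneth lysozyme Lyz1 by -7.76 ± 0.21 and the goblet mucin Muc2 by -4.11 ± 0.28. Enterocyte markers were lower in 12 of 12. Reg3b and Reg3g had their highest means in gallbladder organoids, but their excess over small intestine organoids was not called with all arrays. Which cells carried the Reg3b and Reg3g signal was not tested.

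Set against their own tissue, organoids of gallbladder and of liver had more Reg3b and Reg3g. In gallbladder, organoids exceeded tissue by 6.33 ± 0.78 for Reg3b (adjusted p = 0.000128), 5.78 ± 0.81 for Reg3g (adjusted p = 0.000294) and 0.93 ± 0.20 for Reg3a (adjusted p = 0.00416). This was 3 of 7 members, with 47.9% of all genes called and 32.7% called higher. In liver, organoids exceeded tissue by 4.90 ± 0.81 for Reg3g (adjusted p = 0.000612), 3.49 ± 0.78 for Reg3b (adjusted p = 0.00406) and 5.11 ± 1.59 for Reg1 (adjusted p = 0.0235), again 3 of 7, with 44.9% of all genes called and 26.7% called higher. A share of 3 in 7 is near those backgrounds. Median differences were 0.80 in gallbladder and 0.24 in liver for the members, and 0.17 and 0.00 for all genes. The Reg1 call in liver ended without any 1 of the 4 arrays compared (adjusted p 0.0788 to 0.0915). The markers of these organs moved in the same comparisons. In liver, 7 of 8 biliary markers were higher in organoids (median 4.13) and 10 of 10 hepatocyte markers lower (median -7.76). In gallbladder, 4 of 8 biliary markers were higher (median 0.60) and 9 of 10 hepatocyte markers lower (median -6.38). The part of the epithelial share in the Reg differences was not tested.

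The sizes in gallbladder depended on the tissue array. Without gallbladder tissue replicate 1 the Reg3b difference was 8.05 and without replicate 2 it was 4.62, and for Reg3g 7.55 and 4.01. Replicate 2 minus replicate 1 was -3.43 for Reg3b and -3.54 for Reg3g, with 345 of all genes (1.73%) differing by 2 or more. Reg3b and Reg3g were lower in replicate 2, the array with lower epithelial and higher hepatocyte markers. Immune cell markers had a mean log2 signal of 7.41 and 7.46 in gallbladder tissue and 6.43 and 6.49 in its organoids, and smooth muscle markers 13.2 and 12.8 against 6.98 and 7.01. The part of RNA from muscle, liver and immune cells in the organoid-tissue differences was not tested.

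In small intestine neither Reg3b nor Reg3g passed the test between organoids and tissue. The difference was -0.56 ± 0.78 for Reg3b (95% interval -2.31 to 1.18, adjusted p = 0.649) and 0.35 ± 0.81 for Reg3g (-1.46 to 2.16, adjusted p = 0.804). Without either gallbladder tissue array, which enters here only through the shared error, the Reg3b difference was called (adjusted p = 0.00406). Reg4 was higher in organoids by 2.02 ± 0.44 (adjusted p = 0.00500) and Reg3a lower (-0.82 ± 0.20, adjusted p = 0.00988), which made 2 of 7 members called beside 35.8% of all genes. Reg4 gave 1.09 without tissue replicate 1 and 2.95 without replicate 2. Reg3a lost its call without tissue replicate 2 (-0.48, adjusted p = 0.0555) and without organoid replicate 1 (0.0645). Reg1 stood 3.20 ± 1.59 higher in organoids (adjusted p = 0.154), a value that was -0.24 without tissue replicate 1 and 6.64 without replicate 2. Reg2 and Reg3d turned in sign with the tissue array left out. Without replicate 2 their differences were 0.58 and 0.85, and without replicate 1 they were -0.66 and -1.01. Leaving out either tissue array also takes the gap between them out of the error, so calls gained that way are not read. In a fit to the arrays of these groups alone 0 members were called by limma, with adjusted p = 0.0927 for Reg4 and 0.0822 for Reg3a.

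The genes of the receptor and cytokine pathway were counted in the same 3 comparisons, where 47.9% (gallbladder), 44.9% (liver) and 35.8% (small intestine) of all genes were called and the medians of all genes were 0.17, 0.00 and -0.02. In gallbladder 11 of 26 were higher in organoids and 5 lower (median 0.31), the largest being Tlr2 (-2.81 ± 0.27), Lif (2.40 ± 0.11) and Lifr (-2.07 ± 0.31). In liver 6 were higher and 4 lower (median 0.03), with Tlr4 (2.99 ± 0.21), Lifr (-2.85 ± 0.31) and the IL-6 receptor Il6ra (-2.38 ± 0.47) first; Socs3, split between the liver tissue arrays, gave -0.57 ± 0.85. In small intestine 1 was higher and 12 lower (median -0.57), led by Lifr (-2.62 ± 0.31), the epithelial cytokine Il18 (-2.24 ± 0.43) and Osmr (-2.07 ± 0.27). Small intestine organoids had 8 of 16 enteroendocrine markers higher than tissue and 3 lower, among them Tac1 (3.23 ± 0.22), Neurog3 (2.43 ± 0.27) and Nts (-3.79 ± 0.78), beside the higher Reg4. Goblet markers gave 0 higher and 3 lower of 9, with Clca1 (-3.03 ± 0.21), Muc2 (-2.35 ± 0.28) and Zg16 (-1.64 ± 0.20).

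Whether the organoid-tissue difference itself differs between organs was tested as an interaction in the same fit. The Reg3b difference was greater in gallbladder than in small intestine by 6.90 ± 1.10 (adjusted p = 0.00122), that of Reg3g by 5.43 ± 1.15 (adjusted p = 0.00534) and that of Reg3a by 1.75 ± 0.29 (adjusted p = 0.00144), 3 of 7 members beside 36.6% of all genes. Liver against small intestine gave 4.06 ± 1.10 for Reg3b (adjusted p = 0.0160), 4.55 ± 1.15 for Reg3g (adjusted p = 0.0109) and -2.06 ± 0.63 for Reg4 (adjusted p = 0.0270), again 3 of 7, beside 35.2%. Gallbladder against liver gave 1 of 7, Reg3a at 1.02 ± 0.29 (adjusted p = 0.0184), beside 39.8%. For Reg3b gallbladder exceeded liver by 2.84 ± 1.10 (adjusted p = 0.0648). Without gallbladder tissue replicate 1 this was 4.56 and without replicate 2 it was 1.12. The Reg3g value of 0.88 ± 1.15 became 2.65 and -0.89, so its sign depends on which gallbladder tissue array is kept. Leaving out either array also takes the gap between them out of the error, so calls gained that way are not read.

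Other calls among these interactions were also lost without single arrays. Reg4 in liver against small intestine missed the threshold without small intestine organoid replicate 1 (adjusted p = 0.0941), without either liver tissue array (0.0614 and 0.0595) and without either liver organoid array (0.0656 and 0.0749), and its value was -1.13 without small intestine tissue replicate 1. Reg3b in liver against small intestine missed it without small intestine organoid replicate 2 (0.0531), and Reg3a in gallbladder against liver without gallbladder organoid replicate 2 (0.0732) or liver organoid replicate 2 (0.0651). Reg3b and Reg3g in gallbladder against small intestine kept their calls without any single array.

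**Figure D5:**
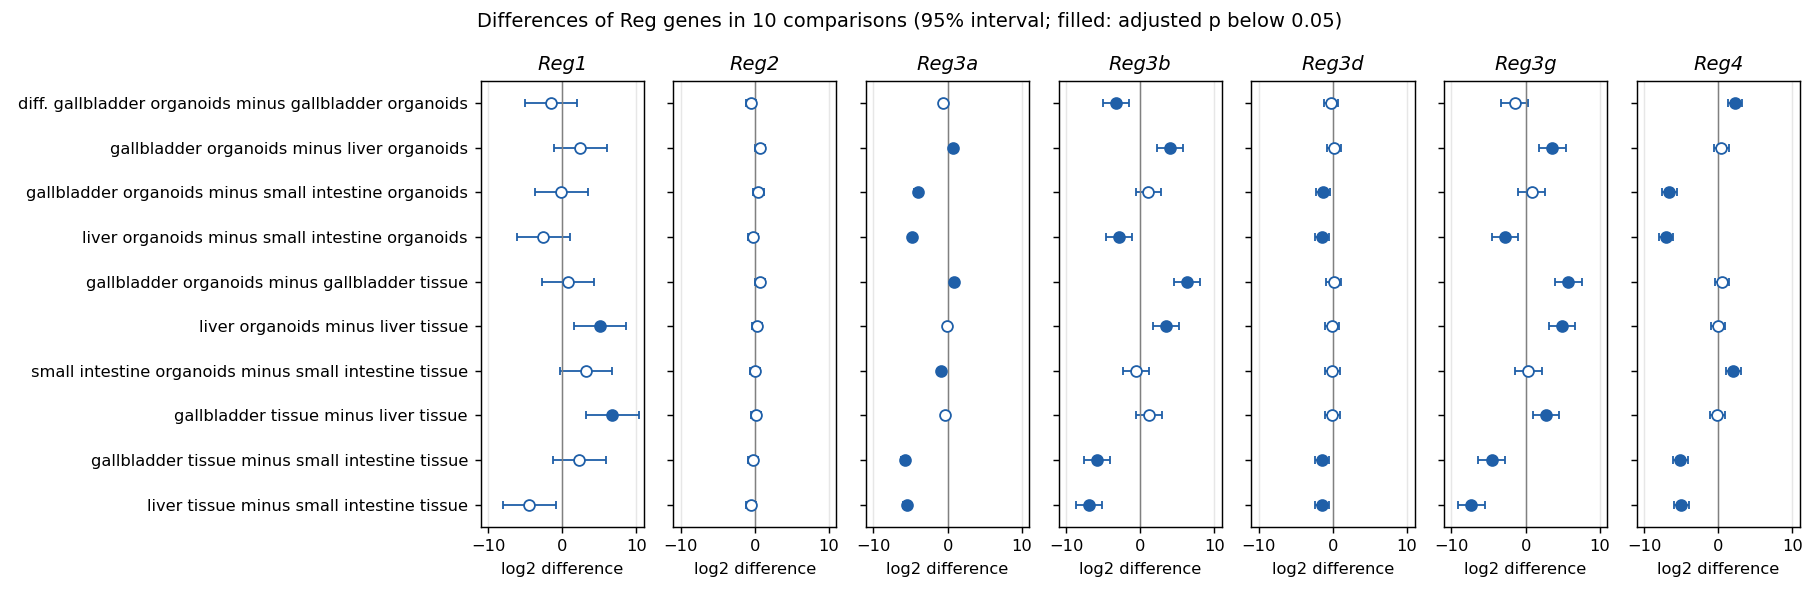
Log2 difference (x axis) of each Reg gene (panels) in 10 comparisons (y axis), with the 95% interval from limma; filled points have an adjusted p below 0.05. Reg3b and Reg3g lie to the right in gallbladder and liver organoids against their tissues (3.49 to 6.33) and near 0 in small intestine, while Reg3a and Reg4 lie to the left wherever a gallbladder or liver group is set against small intestine.

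Among the tissues, small intestine was higher than both others in 5 members. Gallbladder minus small intestine tissue was -5.79 ± 0.20 for Reg3a (adjusted p = 2.15e-08) and -5.79 ± 0.78 for Reg3b (adjusted p = 0.000216). It was -5.11 ± 0.44 for Reg4 (adjusted p = 1.08e-05), -4.59 ± 0.81 for Reg3g (adjusted p = 0.00122) and -1.52 ± 0.43 for Reg3d (adjusted p = 0.0170). That is 5 of 7 members, beside 45.0% of all genes called and 24.3% called lower. Liver tissue was lower in the same 5. Its differences were -7.33 ± 0.81 for Reg3g (adjusted p = 5.29e-05), -6.96 ± 0.78 for Reg3b (adjusted p = 5.75e-05), -5.50 ± 0.20 for Reg3a (adjusted p = 2.35e-08), -4.97 ± 0.44 for Reg4 (adjusted p = 1.16e-05) and -1.45 ± 0.43 for Reg3d (adjusted p = 0.0234), beside 37.5% called and 18.8% called lower. The 2 comparisons share the small intestine arrays. The Reg3d calls ended without gallbladder tissue replicate 2 (0.0672) in the first and without either liver tissue array (0.0663 and 0.0913) in the second. The sizes of Reg3d rested on the intestine arrays: without small intestine tissue replicate 1 they were -2.45 and -2.38, and without replicate 2 they were -0.59 and -0.52. Against gallbladder tissue the Reg3g difference was -6.36 without gallbladder tissue replicate 1 and -2.82 without replicate 2.

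Reg1 separated gallbladder from liver tissue and depended on the intestine array elsewhere. Gallbladder tissue exceeded liver tissue by 6.75 ± 1.59 for Reg1 (adjusted p = 0.00615) and by 2.74 ± 0.81 for Reg3g (adjusted p = 0.0186), 2 of 7 members beside 48.1% of all genes. The Reg3g call ended without either liver tissue array. Its value was 0.97 without gallbladder tissue replicate 1 and 4.51 without replicate 2. Reg3b gave 1.18 ± 0.78 (adjusted p = 0.238), but -0.54 without gallbladder tissue replicate 1 and 2.89 without replicate 2. Calls gained by leaving out 1 of 2 arrays that stand apart are not read, since their gap then leaves the error. Liver against small intestine tissue gave -4.45 ± 1.59 for Reg1 (adjusted p = 0.0504), which was -7.88 without small intestine tissue replicate 1 and -1.01 without replicate 2. With all arrays kept it passed with arrays centred on their median (adjusted p = 0.0492), without the dimmest 40% of genes (0.0387) and with array weights (0.0372). Gallbladder against small intestine tissue gave 2.30 ± 1.59 (adjusted p = 0.264), with 5.74 without replicate 2 and -1.14 without replicate 1. The mean log2 signal of the 19 measured acinar markers was 7.02 and 6.90 in gallbladder tissue, although Ctrb1, which is among them, read 13.48 and 13.69.

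Genes outside the family with the most similar pattern were sought among 4137 genes whose group means span at least 2 log2 units, by Pearson correlation over the 14 arrays; these values describe the 7 groups and carry no test. Reg3b was closest to Tns4 (0.947), Cnnm4 (0.936) and Mtmr7 (0.927). Reg3g was closest to Kdf1 (0.936), Slc12a2 (0.926) and Ttyh3 (0.925). Reg3a was matched by Ms4a10 (0.994), Tubal3 (0.993) and Ms4a12 (0.993), and Reg4 by the sulfotransferase Chst4 (0.984), Bcl2l14 (0.955) and Slc4a5 (0.953). Reg1 had Lekr1 (0.929), Prdm16 (0.925) and the calcium-binding S100g (0.899), the last of which also splits between the small intestine tissue arrays. Reg2 and Reg3d, with group means spanning 0.93 and 1.69, were below the minimum span. Within the family Reg3a and Reg4 had r = 0.892, Reg3d and Reg4 0.830, and Reg1 and Reg2 0.739.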

How the data were processed

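Total RNA of 14 samples was measured on an Affymetrix gene array, 1 array each. The authors deposited 1 log2 signal per probe set and array, made with RMA, per the submitters' processing notes, which give no version; background correction, array normalization and probe summary were done upstream. RMA can shrink differences near the noise floor, and signals near the top of the scale may be close to saturation, which was not checked. No detection call was used, and precision is limited by how few arrays there are.

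Of 35556 probe sets, 21789 carried 1 gene symbol in the platform annotation, 1621 several and 12146 none; 21698 were matched by gene number to RefSeq on GRCm38.p6. For 999 genes with several probe sets the one with the highest mean was kept, leaving 19938 genes; each Reg gene had 1. Probe sequences were not used here, so cross-hybridisation between Reg paralogs was not tested.

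With lmFit and eBayes of limma 3.58.1 in R 4.3.3, the mean of every group was estimated in 1 model over the 14 arrays; p-values are 2-sided and adjusted by Benjamini-Hochberg. With 2 arrays against 2, an exact permutation test cannot go below p = 0.333. Where 1 array is left out, its lone partner is assumed to vary like the other groups. Promoter windows come from RefSeq and were aligned with Biopython 1.88. In the lists at most 3 called genes with the largest differences are named. The members and lists were chosen with earlier results of these data known. The code was tested on simulated data. Alternatives were quantile normalisation, centring, a filter on dim genes, averaging probe sets, fits to the compared groups alone, array weights, a trended robust variance, blocking on the replicate number, and omitting arrays 1 at a time.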

Additional observations from a re-analysis of the deposited data

Results flagged for a closer look

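The organoid-tissue difference of some Reg genes differed between organs by the interaction test in limma, and these results are listed for that reason. Reg3b had a greater organoid excess in gallbladder than in small intestine, by 6.90 ± 1.10 (adjusted p = 0.00122), and in liver than in small intestine, by 4.06 ± 1.10 (adjusted p = 0.0160). Reg3g gave 5.43 ± 1.15 (adjusted p = 0.00534) and 4.55 ± 1.15 (adjusted p = 0.0109) in the same contrasts. Reg3a gave 1.75 ± 0.29 (adjusted p = 0.00144) for gallbladder against small intestine and 1.02 ± 0.29 (adjusted p = 0.0184) for gallbladder against liver. Reg4 went the other way, at -2.06 ± 0.63 for liver against small intestine (adjusted p = 0.0270). Its organoid-tissue difference was -0.04 in liver, at low signals, and 2.02 in small intestine. Some of these calls, that of Reg4 among them, were lost without single arrays, as given above. Groups of 2 arrays are too small for a test of single outlying samples.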

How the results depend on the processing

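Leaving out 1 array at a time moved the number of Reg genes called from 2 to between 0 and 5 for differentiated against undifferentiated gallbladder organoids, from 3 to between 0 and 5 for gallbladder against liver organoids, from 3 to between 2 and 5 for gallbladder against small intestine organoids, and from 5 to between 2 and 6 for liver against small intestine organoids. For organoids against tissue it gave 3 to 5 in gallbladder (3 with all arrays) and 1 to 4 in small intestine (2), 2 to 3 in liver (3), for gallbladder against liver tissue 1 to 3 (2), for gallbladder and liver against small intestine tissue 4 to 6 and 4 to 7 (5 each), and for the interactions 0 to 3 in gallbladder against liver (1), 3 to 6 in gallbladder against small intestine (3) and 2 to 7 in liver against small intestine (3). With only the arrays of the groups compared, the counts were 7 for differentiation, 6 for gallbladder against liver organoids, 6 for gallbladder against small intestine organoids, 5 for gallbladder organoids against tissue, 0 for small intestine organoids against tissue, 1 for gallbladder against liver tissue, 3 for gallbladder against small intestine tissue and 3 for the interaction of gallbladder with liver. Array weights gave 5, 5 and 6 for the first 3 of these and 2 for that interaction; a trended, robust variance gave 1 for differentiation, without Reg3b (adjusted p = 0.0596). The 8 organoid arrays alone, a setting added after seeing the data, gave 6 for each of the first 3. Leaving out the dimmest 40% of genes drops dim Reg genes from the test and gave 1 for gallbladder and 3 for liver against small intestine organoids, 1 for small intestine organoids against tissue, 3 for gallbladder against small intestine tissue and 0 for the interaction of gallbladder with liver. Counts of members called under these alternatives, here and in the sections above, have no share of all genes beside them. They show how calls move with the error and are not set against a background.

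Among differences called with or without the change of setting, the sign turned only when a tissue array was left out. Small intestine organoids minus tissue was -0.66 without tissue replicate 1 and 0.58 without replicate 2 for Reg2 (-0.04 with both), and -1.01 and 0.85 for Reg3d (-0.08). The Reg3d interaction with small intestine was 1.09 and -0.77 for gallbladder (0.16 with both) and 0.89 and -0.97 for liver (-0.04). Gallbladder minus liver tissue was -0.54 without gallbladder tissue replicate 1 and 2.89 without replicate 2 for Reg3b (1.18), and the Reg3g interaction of gallbladder with liver 2.65 and -0.89 (0.88). Over all member differences and alternatives, 1816 values stayed on their side of the threshold, 91 newly passed it, 78 no longer did and these 6 turned in sign.

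The replicate number as a block ended 1 call, Reg3a in gallbladder against liver organoids (0.73, adjusted p = 0.0553). Same-numbered arrays correlated in their deviations at r of -0.10 to 0.14 over 21 pairs of groups. The labels do not say what the numbers pair, and these values cannot show whether same-numbered arrays share an origin. No floor was measured. Differences at low signals (Reg2, Reg3d and Reg3a outside small intestine, Reg3b and Reg3g in liver tissue, Reg4 in liver, gallbladder tissue and gallbladder organoids) or near 14 may be compressed.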
